A study of Rattus norvegicus with 12 samples.

Results

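Sod1 (ENSRNOG00000002115), Sod2 (ENSRNOG00000019048), Cat (ENSRNOG00000008364) and Hmox1 (ENSRNOG00000014117) are 4 of the 25908 genes in the deposited table, and were chosen by identifier as transcripts of antioxidant enzymes. The table lists identifiers only, and the symbols are those given with that choice. RNA was sequenced from brain and testis of adult male Sprague Dawley rats of 15 weeks, in 4 groups of 3 libraries: hDNMT3A brain, wild-type (WT) brain, hDNMT3A testis and WT testis. The hDNMT3A rats carry a human-derived DNMT3A transgene, and DNMT3A is an enzyme that methylates cytosines of DNA, mostly where a guanine follows. The labels do not state the promoter that drives the transgene, the number of founder lines, or whether the samples are separate animals. All p-values therefore rest on variation among the libraries alone, and that variation may be technical. Levels are in FPKM, fragments divided by gene length and by the library's total, so that genes can be compared per length.

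The dismutases and catalase act in succession on reactive oxygen, and heme oxygenase acts on heme. Superoxide dismutases turn superoxide, a by-product of respiration, into hydrogen peroxide and oxygen. SOD1, which holds copper and zinc, does so mainly in the cytosol, and SOD2, which holds manganese, in the mitochondrial matrix. Catalase, the product of Cat, breaks hydrogen peroxide down to water and oxygen, mainly in peroxisomes. Heme oxygenase 1, the product of Hmox1, degrades heme to biliverdin, carbon monoxide and iron, and its gene is a well-known target of the stress-responsive factor NRF2. Hmox1 is abundant in macrophages that clear red blood cells and is low in most of the unstressed brain.

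Since DNMT3A acts on CpG sites, the sites available just upstream of the genes are shown, although methylation was not measured in the files used here. RefSeq promoter entries of build GRCr8 matched 3 of the 4 symbols (Sod1, Sod2 and Cat), and the 250 bases before each annotated start are printed 5′ to 3′ on the gene's strand with every CpG in capitals. The windows lie at chr11:42942573-42942822 on the plus strand (Sod1), chr1:50050169-50050418 on the minus strand (Sod2) and chr3:110329527-110329776 on the minus strand (Cat).
Sod1: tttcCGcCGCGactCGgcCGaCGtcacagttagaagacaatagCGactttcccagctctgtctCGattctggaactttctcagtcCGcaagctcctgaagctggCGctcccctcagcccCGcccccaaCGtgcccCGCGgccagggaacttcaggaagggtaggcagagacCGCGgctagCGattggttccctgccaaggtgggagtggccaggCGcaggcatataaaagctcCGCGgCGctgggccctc
Sod2: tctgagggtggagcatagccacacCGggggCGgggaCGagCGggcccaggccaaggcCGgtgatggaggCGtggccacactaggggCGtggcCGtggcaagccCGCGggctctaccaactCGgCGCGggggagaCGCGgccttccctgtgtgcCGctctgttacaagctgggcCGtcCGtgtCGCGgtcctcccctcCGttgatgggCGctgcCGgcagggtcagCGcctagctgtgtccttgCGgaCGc
Cat: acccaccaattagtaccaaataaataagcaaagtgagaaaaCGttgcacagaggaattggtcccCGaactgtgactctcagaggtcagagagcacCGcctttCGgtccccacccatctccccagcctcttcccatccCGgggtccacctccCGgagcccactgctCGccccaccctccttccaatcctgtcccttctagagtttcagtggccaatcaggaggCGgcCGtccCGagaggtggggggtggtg

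The Sod2 window held 26 CpG sites, the Sod1 window 21 and the Cat window 10, against a median of 5 over 33469 rat promoter windows of that length. As many as in the Sod2 window or more were found in 8.64% of those windows, as many as for Sod1 in 15.1% and as many as for Cat in 35.9%. The ratio of observed to expected CpG was 0.82 for Sod2, 0.85 for Sod1 and 0.48 for Cat, so the Cat window was the poorest in CpG for its base composition. Searched on both strands, TATAAA was found, among these 3, only in the Sod1 window, at position -28 from the start, and occurred in 12.9% of all windows. CCAAT was found 4 times in the Cat window and 1 time in the Sod1 window, and in 34.0% of all windows. GGGCGG was found 1 time each in the Sod1 and Sod2 windows, and in 30.5% of all windows. TGACNNNGC, the core of the element that NRF2 binds, was found 1 time in the Sod2 window, at -35 on the opposite strand, and in 10.1% of all windows. These are matches of letters and no measure of binding.

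Whole read numbers could be recovered from the FPKM values, and the recovered library totals ran from 14004547 to 16112149 reads. Over the 12 libraries Sod1 was counted with 1118 to 1756 reads, Sod2 with 521 to 2515, Cat with 96 to 1084 and Hmox1 with 74 to 690. The least certain levels from counting alone were therefore those of Hmox1 in brain and Cat in testis. The lowest Hmox1 value, 3.11 FPKM from 74 reads, had a 95% exact Poisson interval from 2.44 to 3.90 FPKM. The lowest Cat value, 2.55 FPKM from 96 reads, had one from 2.06 to 3.11 FPKM. Such intervals cover counting error only. A set of 203 transcripts abundant in testis and near 0 in brain stood at 1.59% of their testis level in WT brain replicate 2, against 0.051% to 0.330% in the other 5 brain libraries. Carried over to the 4 genes, that share would equal 9.57% of the Hmox1 value in WT brain replicate 2 and at most 1.47% of the values of Sod1, Sod2 and Cat there.

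The 4 transcripts had different tissue patterns. Sod1 was the most abundant of them in every library and stood at similar levels in brain and testis. Sod2 was 3.89- to 4.0-fold and Cat 7.34- to 8.0-fold higher in brain. Hmox1 ran the other way and was 5.37- to 6.63-fold higher in testis. Per length, the order in each brain library was Sod1, Sod2, Cat, Hmox1, and in each testis library Sod1, Hmox1, Sod2, Cat.

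**Figure D1:**
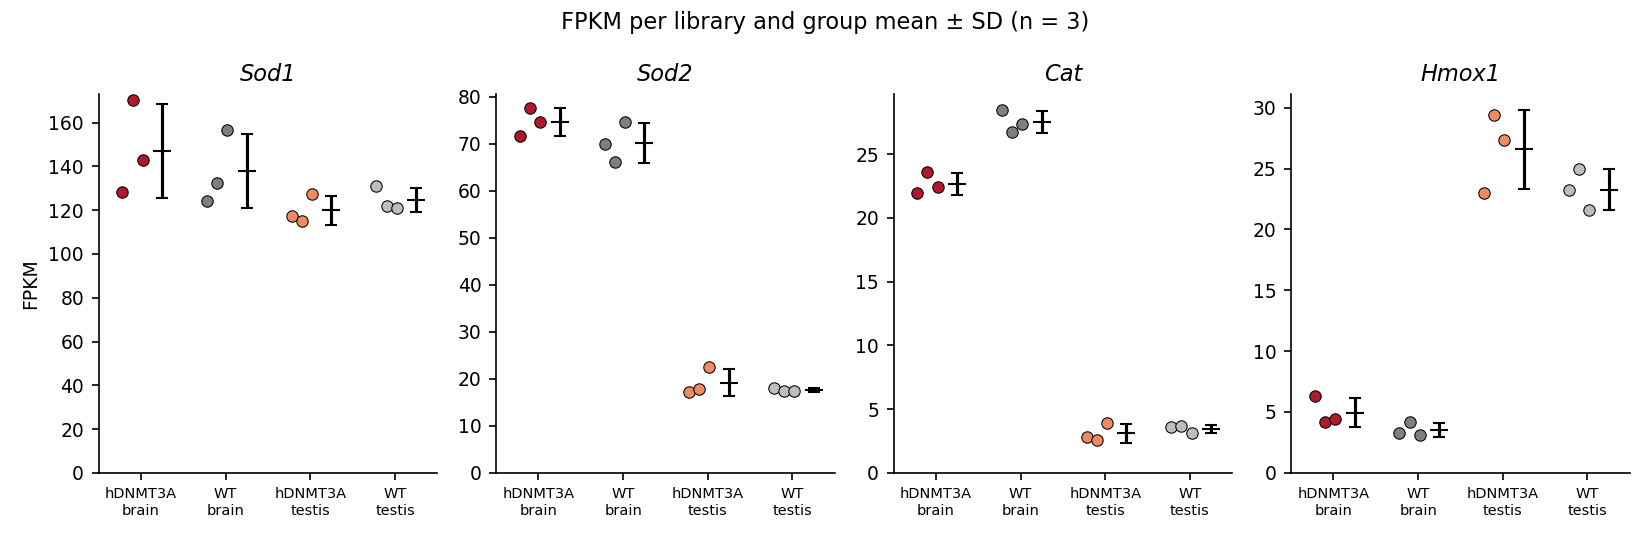
FPKM of each gene by group, with 1 point per library and the group mean ± SD (n = 3) beside it. Sod1 lies between 115 and 170 FPKM in all 4 groups, Sod2 and Cat are higher in brain, and Hmox1 is higher in testis; the hDNMT3A and WT brain points are apart only for Cat.

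Sod1, the cytosolic dismutase, had 128, 170 and 143 FPKM in hDNMT3A brain and 124, 132 and 157 FPKM in WT brain. In testis it had 117, 115 and 128 FPKM in hDNMT3A rats and 131, 122 and 121 FPKM in WT rats. The brain libraries spread more widely than the testis ones, and the ranges of the genotypes overlapped in each tissue. The mean was 147 ± 21.5 FPKM in hDNMT3A brain, 138 ± 16.9 in WT brain, 120 ± 6.77 in hDNMT3A testis and 125 ± 5.49 in WT testis (SD, n = 3 each). By mean level Sod1 ranked 403 in hDNMT3A brain and 433 in WT brain, and 884 in hDNMT3A testis and 844 in WT testis, among all genes of the table.

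Sod2, the mitochondrial dismutase, had 71.7, 77.6 and 74.7 FPKM in hDNMT3A brain and 70.0, 66.1 and 74.6 FPKM in WT brain. In testis it had 17.2, 17.8 and 22.6 FPKM in hDNMT3A rats and 18.01, 17.3 and 17.3 FPKM in WT rats. Every brain value was above every testis value, and hDNMT3A testis replicate 3 was the highest of the testis libraries. The mean was 74.7 ± 2.99 FPKM in hDNMT3A brain, 70.2 ± 4.27 in WT brain, 19.2 ± 2.94 in hDNMT3A testis and 17.5 ± 0.399 in WT testis (SD, n = 3 each).

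Cat, which encodes catalase, had 21.9, 23.6 and 22.4 FPKM in hDNMT3A brain and 28.5, 26.8 and 27.4 FPKM in WT brain. In testis it had 2.77, 2.55 and 3.94 FPKM in hDNMT3A rats and 3.57, 3.65 and 3.11 FPKM in WT rats. In brain all 3 hDNMT3A libraries were below all 3 WT libraries, while in testis the genotypes overlapped and hDNMT3A replicate 3 was again the highest. The mean was 22.6 ± 0.843 FPKM in hDNMT3A brain, 27.5 ± 0.849 in WT brain, 3.08 ± 0.745 in hDNMT3A testis and 3.44 ± 0.292 in WT testis (SD, n = 3 each).

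Hmox1, which encodes the inducible heme oxygenase, had 6.33, 4.15 and 4.38 FPKM in hDNMT3A brain and 3.28, 4.15 and 3.11 FPKM in WT brain. In testis it had 23.0, 29.4 and 27.3 FPKM in hDNMT3A rats and 23.3, 24.9 and 21.6 FPKM in WT rats. The ranges of the genotypes touched in brain, where the lowest hDNMT3A value (102 reads) and the highest WT value (91 reads, replicate 2, in the smallest library) were both 4.15 FPKM. That WT library was also the one with the testis transcripts, at a share that would equal 9.57% of its Hmox1 value. In testis the ranges of the genotypes overlapped. The mean was 4.95 ± 1.20 FPKM in hDNMT3A brain, 3.51 ± 0.559 in WT brain, 26.6 ± 3.25 in hDNMT3A testis and 23.3 ± 1.66 in WT testis (SD, n = 3 each).

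The comparison of tissues asked how the levels in brain and testis differed within a genotype. In hDNMT3A rats Sod2 was 3.89-fold and Cat 7.34-fold higher in brain, and Hmox1 was 5.37-fold higher in testis, as ratios of the group means. In WT rats the ratios were 4.0 for Sod2, 8.0 for Cat and 6.63 for Hmox1, in the same directions. Each of these differences passed the test, limma on log2(FPKM + 0.5) with Benjamini-Hochberg adjustment over all genes tested and an adjusted p under 0.05 as the threshold. In hDNMT3A rats the log2 difference, brain minus testis, was 1.94 for Sod2 (SE 0.11, adjusted p = 9.4e-07), 2.71 for Cat (SE 0.15, adjusted p = 6.8e-07) and -2.33 for Hmox1 (SE 0.17, adjusted p = 3.6e-06). In WT rats it was 1.97 for Sod2 (SE 0.07, adjusted p = 3.4e-07), 2.83 for Cat (SE 0.08, adjusted p = 2.3e-07) and -2.57 for Hmox1 (SE 0.12, adjusted p = 1.5e-06).

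Sod1 differed little between the tissues. Its mean was 22.8% higher in brain than in testis in hDNMT3A rats, a log2 difference of 0.29 (95% interval 0.02 to 0.55, adjusted p = 0.042) that just passed the test. In WT rats the brain mean was 10.5% higher, with a log2 difference of 0.14 (95% interval -0.09 to 0.36, adjusted p = 0.21). FPKM is a share of each library, and over all genes tested the median log2 difference lay 0.21 toward brain in hDNMT3A rats and 0.23 toward brain in WT rats. With each library scaled to its median ratio, the Sod1 difference was 0.08 in hDNMT3A rats (adjusted p = 0.51) and -0.09 in WT rats (adjusted p = 0.43), so its direction in WT rats depends on the scaling. The call in hDNMT3A rats was also lost without brain replicate 2 or 3 or testis replicate 1 or 2 (adjusted p from 0.076 to 0.12).

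Most genes differ between brain and testis, and the counts for the 4 genes are read against that. In hDNMT3A rats 4 of the 4 were called, against 89.1% of 16102 genes tested. Of the 4, 3 were higher in brain (47.6% of the genes tested) and 1 was lower (41.5%). In WT rats 3 of the 4 were called, against 89.7% of 16115 genes, with 2 higher in brain (48.2%) and 1 lower (41.5%). A difference at least as large as that of Cat was seen in 33.7% of the genes tested in hDNMT3A rats and 31.5% in WT rats. For Sod1 these shares were 91.0% and 95.6%, so its tissue difference was among the smallest. In bulk tissue, fewer cells of a type that holds a transcript and less of it per cell cannot be told apart.

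**Figure D2:**
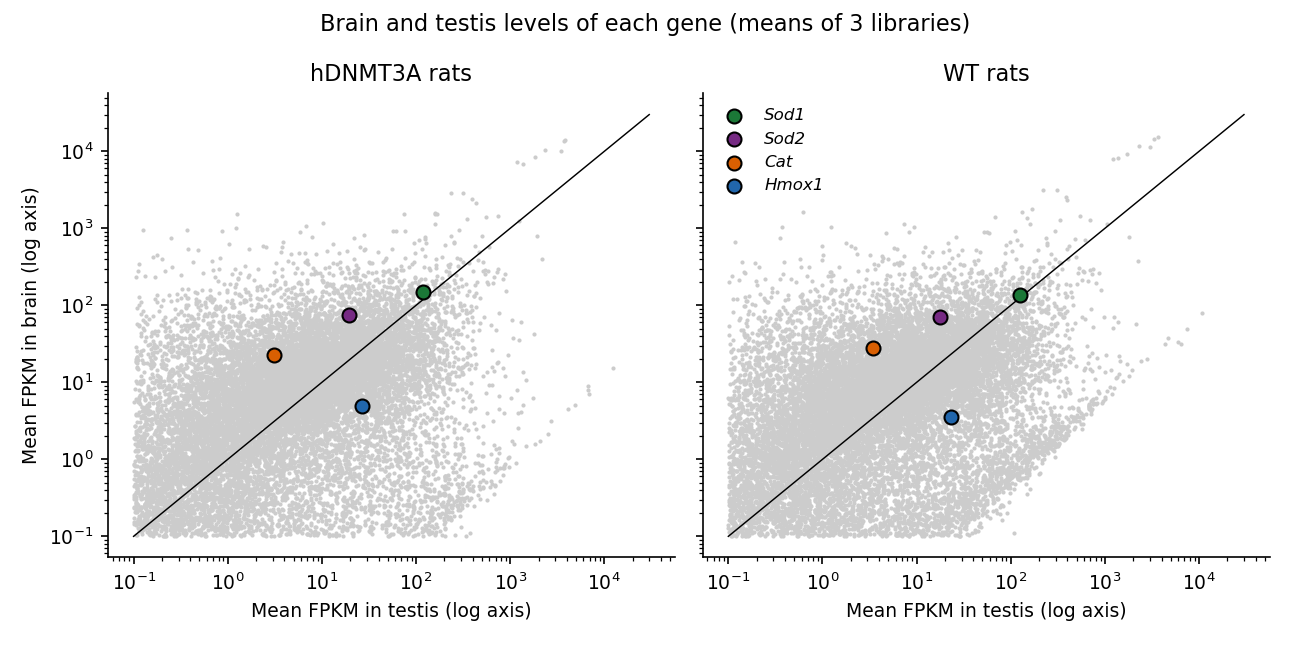
Mean FPKM in brain against mean FPKM in testis, on log axes, for hDNMT3A rats (left) and WT rats (right), with 1 grey point per gene of at least 0.1 FPKM in both tissues and the 4 genes in colour. Sod1 lies close to the line of equal levels, slightly on the brain side, Sod2 and Cat lie above it, and Hmox1 lies below it, all within the cloud of other genes.

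The comparison of genotypes in brain asked whether the 4 transcripts differed in rats with the transgene. In limma 0 of the 4 passed the threshold, where 0.116% of 13827 genes tested did, and voom on the recovered reads also called 0. At an unadjusted p under 0.05 there was 1, Cat, where 7.87% of the genes tested reached that level. Hmox1 lay just above it in limma (unadjusted p = 0.0503), so this count depends on the setting. The unadjusted limma p of Hmox1 was 0.018 with all 12 libraries in 1 fit and 0.17 without hDNMT3A replicate 1. Cat had a mean 17.8% lower in hDNMT3A than in WT brain. Its log2 difference was -0.28 (SE 0.07, 95% interval -0.43 to -0.12), with an unadjusted limma p of 0.0038 and an adjusted p of 0.33. Of the 4 genes, 1 (Cat) had groups that did not overlap, and so did 13.4% of the genes tested. A difference of at least this size was seen in 14.6% of the genes, and by p-value Cat ranked 158 among them.

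Hmox1 had a mean 41.0% higher in hDNMT3A than in WT brain, the largest difference of the 4 in size. A difference of at least this size was seen in 7.22% of the genes tested. The log2 difference was 0.43 (SE 0.18, 95% interval -0.0008 to 0.86, adjusted p = 0.64). It was 0.26 without hDNMT3A replicate 1, the highest brain library at 6.33 FPKM (adjusted p = 0.86). Without WT replicate 2, the library with the testis transcripts, it was 0.54 (adjusted p = 0.61), and with the testis-like share of each brain library subtracted it was 0.48 (adjusted p = 0.52). Sod1 and Sod2 each differed by 0.09 on the log2 scale in brain. The 95% intervals were -0.20 to 0.39 for Sod1 (adjusted p = 0.93) and -0.07 to 0.25 for Sod2 (adjusted p = 0.86), so the upper bounds were a 1.31-fold rise for Sod1 and a 1.19-fold rise for Sod2.

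In testis 0 of the 4 genes passed the threshold in limma or in voom, where 0.576% of 14572 genes tested passed in limma. At an unadjusted p under 0.05 there were also 0, against 11.1% of the genes tested. This count depends on the libraries. Without hDNMT3A testis replicate 1 the Hmox1 difference was 0.28, with an unadjusted limma p of 0.016 and an adjusted p of 0.31. In that fit 1667 of 14547 genes tested had an unadjusted p under 0.05. The log2 differences between hDNMT3A and WT testis were -0.06 for Sod1 (95% interval -0.20 to 0.09, adjusted p = 0.80) and 0.12 for Sod2 (-0.14 to 0.37, adjusted p = 0.76). For Cat the difference was -0.15 (-0.56 to 0.25, adjusted p = 0.81), and for Hmox1 it was 0.18 (-0.06 to 0.43, adjusted p = 0.58). The groups overlapped for each of the 4 genes, where 17.7% of the genes tested had groups that did not. The interval of Cat is the widest, and its level rests on 96 to 161 reads per testis library. Without hDNMT3A testis replicate 3, which had 22.6 FPKM of Sod2, the Sod2 difference was -0.0020 and the Cat difference was -0.32 (adjusted p = 0.41). Without hDNMT3A testis replicate 2, the Cat difference was -0.05 (adjusted p = 0.96).

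**Figure D3:**
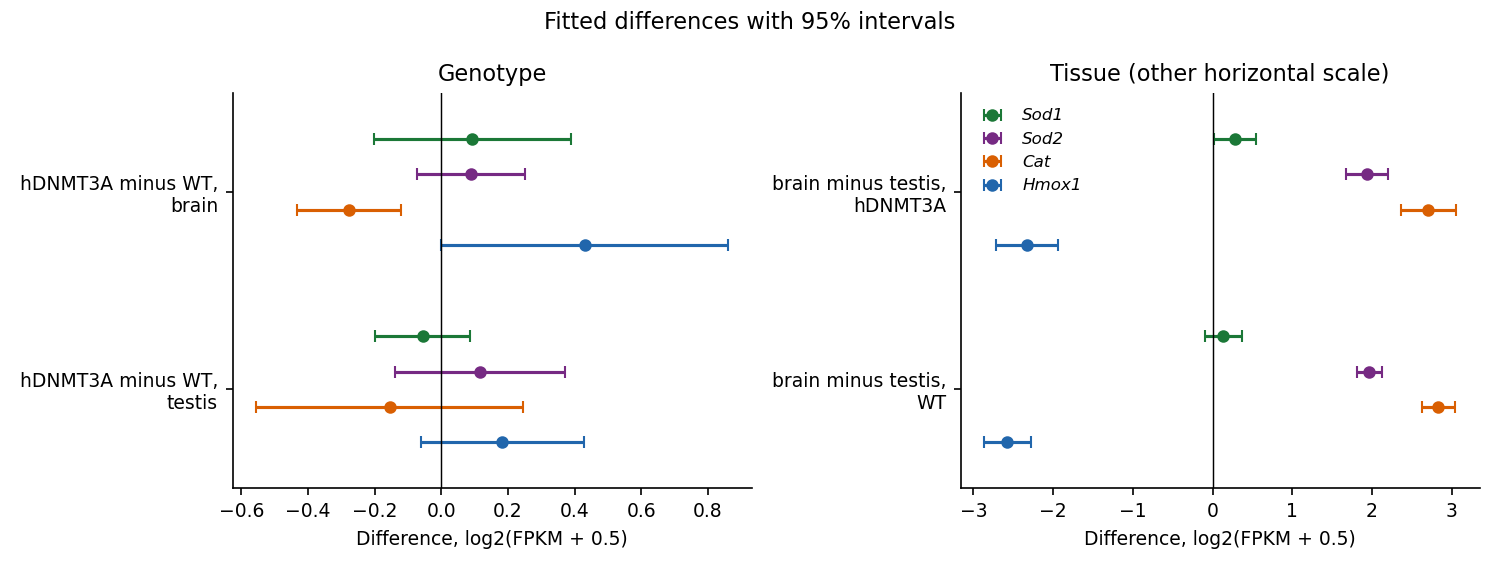
Fitted difference on the log2(FPKM + 0.5) scale with its 95% interval for each gene, hDNMT3A minus WT in each tissue (left) and brain minus testis in each genotype (right), on unequal horizontal scales. Among the genotype differences, the interval of Cat in brain (-0.43 to -0.12) is the only one clear of 0, before adjustment for the number of genes tested.

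Whether the genotype difference itself differed between brain and testis was tested over 12 libraries as an interaction. It passed for 0 of the 4 genes in limma and in voom, against 0.421% of 10917 genes tested in limma. At an unadjusted p under 0.05 there were also 0, against 8.04% of the genes tested. The interaction, brain minus testis, was 0.15 for Sod1 (adjusted p = 0.88), -0.03 for Sod2 (0.99), -0.12 for Cat (0.93) and 0.25 for Hmox1 (0.85), all as adjusted limma p. Without hDNMT3A brain replicate 1 it was 0.07 for Hmox1, and without hDNMT3A brain replicate 2 it was 0.04 for Sod1. In the hDNMT3A means Cat was lower and Sod2 and Hmox1 were higher in both tissues, while Sod1 was higher in brain and lower in testis. The share of all genes with the same sign in both tissues was not computed. By the interaction test, the Cat difference that set the brain groups apart was not shown to be larger than that in testis. The same test bears on Sod1, whose tissue difference passed in hDNMT3A rats and not in WT rats: the 2 tissue differences were not shown to differ.

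The balance among the 4 transcripts differed more between tissues than between genotypes. The ratio of Sod1 to Sod2 was 1.97 ± 0.209 in hDNMT3A brain, 1.96 ± 0.168 in WT brain, 6.30 ± 0.593 in hDNMT3A testis and 7.10 ± 0.150 in WT testis (SD, n = 3 each). Its range was 5.65 to 6.81 in hDNMT3A testis and 6.996 to 7.27 in WT testis, so these groups did not overlap. The ratio of Cat to Hmox1 was 3.47, 5.68 and 5.12 in hDNMT3A brain and 8.68, 6.45 and 8.82 in WT brain, again without overlap. In testis it was 0.120, 0.0868 and 0.144 in hDNMT3A rats and 0.154, 0.146 and 0.144 in WT rats. The ratio of Hmox1 to Sod2 overlapped between genotypes in brain (0.053 to 0.088 in hDNMT3A, 0.042 to 0.063 in WT). It also overlapped in testis (1.21 to 1.65 in hDNMT3A, 1.25 to 1.44 in WT). These ratios were formed after the values were seen and were not tested. Of the single genes tested, 13.4% in brain and 17.7% in testis had groups that did not overlap. No such share was computed for ratios. The summed FPKM of the 4 transcripts was 249 ± 24.3 in hDNMT3A brain, 239 ± 19.8 in WT brain, 169 ± 11.2 in hDNMT3A testis and 169 ± 6.44 in WT testis (SD, n = 3 each).

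**Figure D4:**
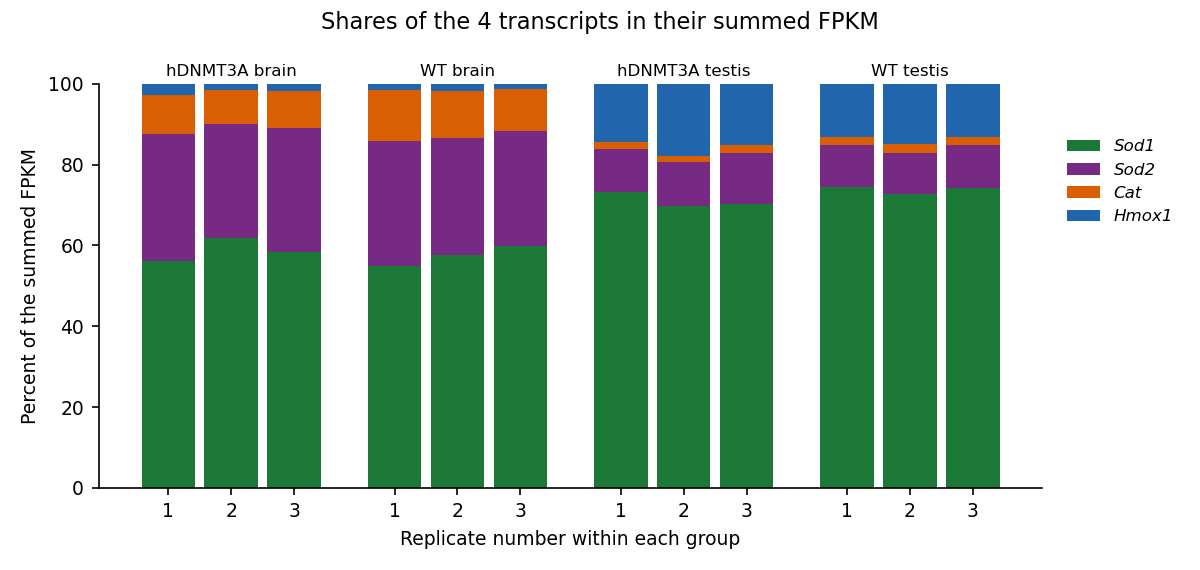
Share of each gene in the summed FPKM of the 4 genes, with 1 bar per library, grouped by tissue and genotype. Sod1 makes up 54.9% to 61.8% in brain and 69.8% to 74.5% in testis; Hmox1 makes up 1.19% to 2.77% in brain and 13.2% to 17.8% in testis, and Cat 8.55% to 12.6% in brain and 1.55% to 2.17% in testis.

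The spread between replicates differed among the genes. The coefficient of variation of Sod1 was 14.6% in hDNMT3A brain and 12.3% in WT brain, where counting alone gives 2.61% and 2.75%. In testis it was 5.65% in hDNMT3A and 4.41% in WT rats. On the log2 scale the SD of Sod1 in brain was larger than that of 89.5% (hDNMT3A) and 88.5% (WT) of the 200 genes nearest to it in level. Cat was the steadiest of the 4 in brain, at 3.72% in hDNMT3A and 3.08% in WT rats, close to the 3.37% and 3.12% that counting gives. In WT testis Sod2 varied by 2.27%, below the 4.26% from counting, and in hDNMT3A testis by 15.3%, against 4.08% from counting.

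Patterns over the 12 libraries were compared by Pearson's r of log2(FPKM + 0.5) over 10917 genes averaging 1 FPKM or more in brain and also in testis. The libraries fall into 2 tissues, so a high r mostly restates a tissue difference, and r within the 6 libraries of a tissue is given beside it as a description. Sod2 was most like ENSRNOG00000050630 (r = 0.999 over 12 libraries, 0.93 in brain and 0.94 in testis), one of 1273 genes with r over 0.99. Cat was most like ENSRNOG00000001113 (r = 0.998, with 0.97 in brain and 0.82 in testis), one of 732 such genes. Hmox1 was most like ENSRNOG00000002610 (r = 0.994, with 0.86 in brain and 0.88 in testis), one of 21 such genes. For Sod1 the closest gene was ENSRNOG00000001254, with r = 0.88 over 12 libraries, 0.85 in brain and 0.61 in testis, and no gene passed 0.99. These identifiers were not paired with gene names in the sources used here.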

How the data were processed

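The authors deposited values named FPKM in the title of their table, for 25908 genes, 1 column per sample, with unnamed Ensembl identifiers. The submitters' processing notes name Bowtie 1.0.1 and build Rnor_6.0, and a TruSeq kit was used on total RNA, per the labels' protocols. How reads were counted, on which annotation, and whether strand or similar gene copies were considered, is not stated in the labels. No identifier matched the reference table of gene names, so the lists of other antioxidant genes and of cell type markers, rat Dnmt3a and the transgene were not analysed here. Tissues were therefore checked only through transcripts restricted to testis (averaging 100 FPKM or more there, with a brain median of 0.5 FPKM or less), a class chosen after seeing the data.

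Reads were recovered as whole multiples, within 0.002 reads, of 1 read for a gene length of up to 60000 bp, in 100% of genes. The shortest length that gave whole values was taken, so reads are too few where the counts of a gene share a factor. The recovered reads made up at least 99.986% of each recovered total, so the mapped depth is not known. Replicates differed beyond sampling noise (chi-square per gene between 4.81 and 14.3 for each pair) and each counted as 1 sample. Comparisons used limma 3.58.1 in R 4.3.3 (two-sided, intensity trend) on log2(FPKM + 0.5), a scale that understates changes of low genes. Genes averaging 1 FPKM or more over the libraries compared (for the interaction, in each tissue) were tested, with Benjamini-Hochberg adjustment over all of them and a threshold of 0.05. The fits and the read recovery were tested on simulated data. The changes simulated for the fits were larger than any genotype difference of the 4 genes. That test therefore cannot show whether differences of the size seen here would be called. Python 3.11.15 (numpy 2.4.6, pandas 2.3.3, scipy 1.17.1, matplotlib 3.10.9) did the rest. The 4 genes, the lists and the tests were chosen with earlier results of these data known. Other genes named were, by rule, the single gene most like each of the 4. Alternatives changed the pseudocount (0.1 or 1), filter, scaling, trend or libraries fitted, added a replicate block, used voom on recovered reads, or left out each library. Subtraction of the testis-like share was added after seeing the data.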

Additional observations from a re-analysis of the deposited data

How the results depend on the processing

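Over 14 to 20 alternatives per comparison, the tissue differences of Sod2, Cat and Hmox1 kept their direction and their call in each one, with adjusted p of at most 7.3e-05. No alternative brought a genotype difference or an interaction of the 4 genes past the threshold. The lowest adjusted p was 0.31 for Cat and 0.41 for Hmox1 in brain, and 0.31 for Hmox1 in testis. Sod1 in hDNMT3A rats, brain minus testis, was called in 7 of 14 alternatives, and was lost without a filter (adjusted p = 0.064) and without a trend (0.067) as well as where stated above. Signs turned only for differences that were not called. Sod1 in WT rats, brain minus testis, was -0.09 with median-ratio scaling, which centres the median of all genes. Without single libraries, the hDNMT3A minus WT difference ran from -0.02 to 0.19 for Sod1 in brain and from -0.0020 to 0.19 for Sod2 in testis. The interaction then ran from -0.10 to 0.09 for Sod2, from -0.23 to 0.04 for Cat, from 0.04 to 0.25 for Sod1 and from 0.07 to 0.36 for Hmox1.

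With a replicate block the Cat difference in brain had an adjusted limma p of 0.87 and Hmox1 one of 0.98. The log2 differences were -0.28 and 0.43 as before, and 0 of the 4 genes were called in brain and 0 in testis. In the genotype comparisons this block joined an hDNMT3A and a WT library by number alone. Such libraries cannot come from 1 animal, so these p-values are not those of paired animals. In the interaction the block joined brain and testis libraries of the same genotype and number. Between genotypes, r of the deviations of same-numbered libraries across genes ran from -0.25 to -0.02 in brain and from 0.04 to 0.11 in testis. Between the testis groups each library correlated best with its own number. Between tissues, where 1 animal could have given both libraries, r ran from -0.02 to 0.02 in WT and from 0.004 to 0.11 in hDNMT3A rats. The column codes of brain and testis share a genotype letter and a number, but do not state an animal. The tissue values cannot show whether same-numbered libraries share an animal, because tissues of 1 animal need not deviate together. In limma with the block, 0 of all genes tested were called in brain (742 at an unadjusted p under 0.05), 39 in testis and 1 in the interaction, against 16, 84 and 46. Over all alternatives these counts ran from 0 to 57, 20 to 247 and 1 to 103. Depth limits Hmox1 in brain and Cat in testis most.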
